A study of Mus musculus with 6 samples.

Results

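The nuclear pore and nuclear transport genes are the genes whose products build the nuclear pore complex and carry proteins and RNA through it. They were taken by symbol: nucleoporins (Nup), importin alpha (Kpna) and importin beta (Kpnb1) genes, exportins (Xpo), importins (Ipo), transportins (Tnpo), and Ran, Rangap1, Ranbp1, Ranbp2, Rcc1, Tpr, Pom121, Cse1l and Nxf1. This gave 55 of the 23244 loci in the files, of which 26 belong to the pore, 25 are transport receptors and 4 belong to the Ran cycle. The rule uses symbols and no expression value, although it was set with earlier results of these data known. Ndc1, a membrane nucleoporin that the rule also names, is listed in the files under its older symbol Tmem48 and is described with the related genes outside the rule.

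RNA was measured in mouse embryonic stem (ES) cells carrying an inducible, Cre-loxP based knockout of the zinc-finger gene Zscan10. The 3 control libraries came from cells with floxed, undeleted Zscan10, and their titles carry the mark -Tx, whose meaning is not stated. The 3 null libraries came from a subcloned Zscan10-null line, so clone, genotype and any treatment cannot be told apart. The labels do not say that libraries of a group were separate cultures, so p-values measure the spread between these libraries, which may be technical. Values are FPKM, fragment counts scaled by transcript length and library depth, so that levels of different genes can be compared per length.

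Zscan10 itself was at 43.0 ± 1.14 FPKM in control and 5.13 ± 0.607 FPKM in null libraries (mean ± SD, n = 3 each). All 6 ES cell markers were present, with summed levels of 1819 to 1861 FPKM in control and 1650 to 1769 FPKM in null libraries. Limma called 2 of the 6 lower, Esrrb and Zfp42 (adjusted p = 0.00941 and 0.0188), and 0 higher. For all marker lists, higher and lower mean called by limma in null against control libraries, at an adjusted p under 0.05. In control and null libraries, marker sums were 4.81 to 6.06 and 3.44 to 4.85 FPKM for endoderm, 79.6 to 88.2 and 61.1 to 69.5 FPKM for neuroectoderm (3 of 5 tested lower: Tubb3, Pax6 and Neurod1), and 29.7 to 36.9 and 32.3 to 43.9 FPKM for trophectoderm (Eomes and Hand1 higher of 4 tested). Of these and the following marker lists, 0 genes were at 0 in every library. The 10 fibroblast markers summed to 177 to 183 FPKM in control and 205 to 259 FPKM in null libraries, most of it Vim, at 108 and 189 FPKM. Vim and Thy1 were higher, Acta2, Tagln and Fn1 lower, and the collagen genes Col1a1 and Col1a2, under the minimum for the test, were at 0.738 and 1.13 FPKM in control and 0.0861 and 0.0776 FPKM in null libraries. All 7 markers of the 2-cell-like state were higher, with sums of 35.3 to 37.2 and 75.7 to 99.9 FPKM. Over all 11480 loci tested, 12.8% were called higher and 12.4% lower. From the steps between low values, control replicate 1 was estimated to hold 7601552 fragments, and the relative depth of the 6 libraries ranged from 0.986 to 1.09.

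The nuclear pore complex is a ring-shaped channel in the nuclear envelope. An outer ring (the Y complex) and an inner ring form its scaffold, membrane nucleoporins anchor it, nucleoporins rich in phenylalanine-glycine repeats fill the central channel, and filaments reach into the cytoplasm and a basket into the nucleus. Importins bind cargo in the cytoplasm and release it when Ran bound to GTP meets them in the nucleus, while exportins bind cargo together with Ran-GTP. In ES cells the importin alpha Kpna2 is known as the main carrier of the pluripotency factor Oct4.

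Most of these genes were at nearly the same level with and without Zscan10. There were 53 members whose mean reached 1 FPKM, and 9 of them passed the threshold (limma, Benjamini-Hochberg adjusted p under 0.05 over all 11480 loci tested), 7 higher and 2 lower in null libraries. Over all loci tested, 25.2% passed, 12.8% higher and 12.4% lower, and of the members 17.0%. An unadjusted p under 0.05 in limma was reached by 21 of the 53 members and by 4502 of the 11480 loci. The median absolute log2 fold change was 0.09 over the members and 0.14 over all loci tested. For 45 of the 53 members the unadjusted 95% interval of the log2 fold change lay wholly between -0.32 and 0.32. The number of members called was 5, 4 and 5 in the fits without control replicate 1, 2 and 3. Over all loci, these fits called 1776, 1719 and 1943, against 2894 with all libraries. Without null replicate 1, 2 and 3, the fits called 11, 7 and 6 members and 2914, 2098 and 1976 loci.

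**Figure D1:**
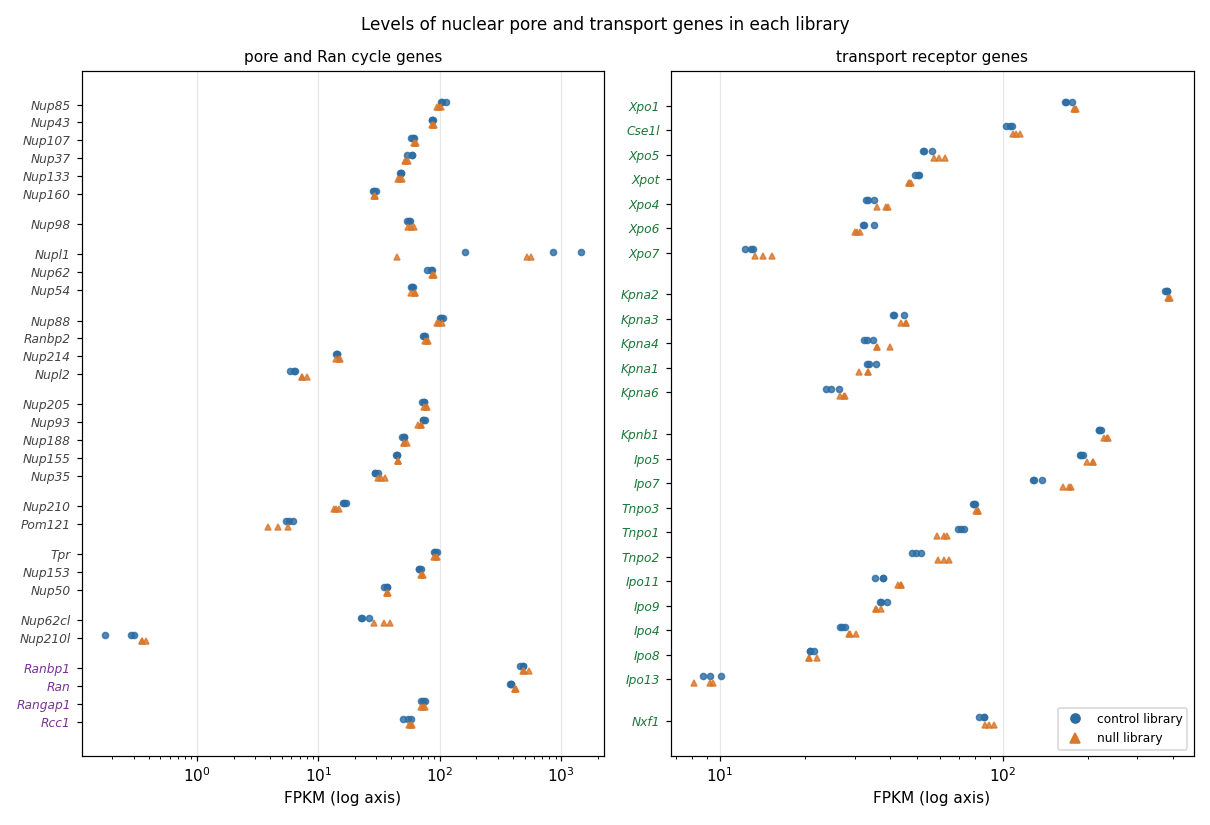
FPKM of each member in each library on a log axis, control libraries as circles and null libraries as triangles, with genes grouped by role and ordered by mean level within a role. Kpna7, at 0 in 4 of 6 libraries, is left out; the points of a gene lie close together except for the locus of Nupl1, which runs from 44.4 to 1448 FPKM.

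The pore and the transport receptors both had small median changes. Limma called 3 of the 25 pore members tested (12%, against 25.2% of all loci tested), Nupl2 and Nup62cl higher and Nup210 lower. The median log2 fold change of the 25 was 0.03. Limma called 5 of the 24 receptors tested (20.8%), Ipo5, Ipo7, Ipo11 and Tnpo2 higher and Tnpo1 lower. The median of the 24 was 0.08. The difference of the medians, pore minus receptors, was -0.05. By library, set against the control mean, this difference was 0.0033, 0.032 and -0.011 in the control and -0.035, -0.061 and -0.052 in the null libraries. All null libraries lay below all control libraries. Members are not replicates, and the difference was not tested.

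Control and null libraries were fully separated for 19 of 24 receptors (79.2%) and for 11 of 25 pore members (44.0%), against 44.1% of all loci tested. The log2 fold change was above 0 for 18 of 24 receptors and 17 of 25 pore members. This lean upward depended on the scaling. After median centring the log2 fold change was above 0 for 18 receptors and 18 pore members, with medians of 0.11 and 0.06. In that fit 9 members were called higher and 2 lower. After quantile normalization it was above 0 for 14 receptors and 11 pore members, with medians of 0.03 and -0.0046. There 5 members were called higher and 4 lower.

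**Figure D2:**
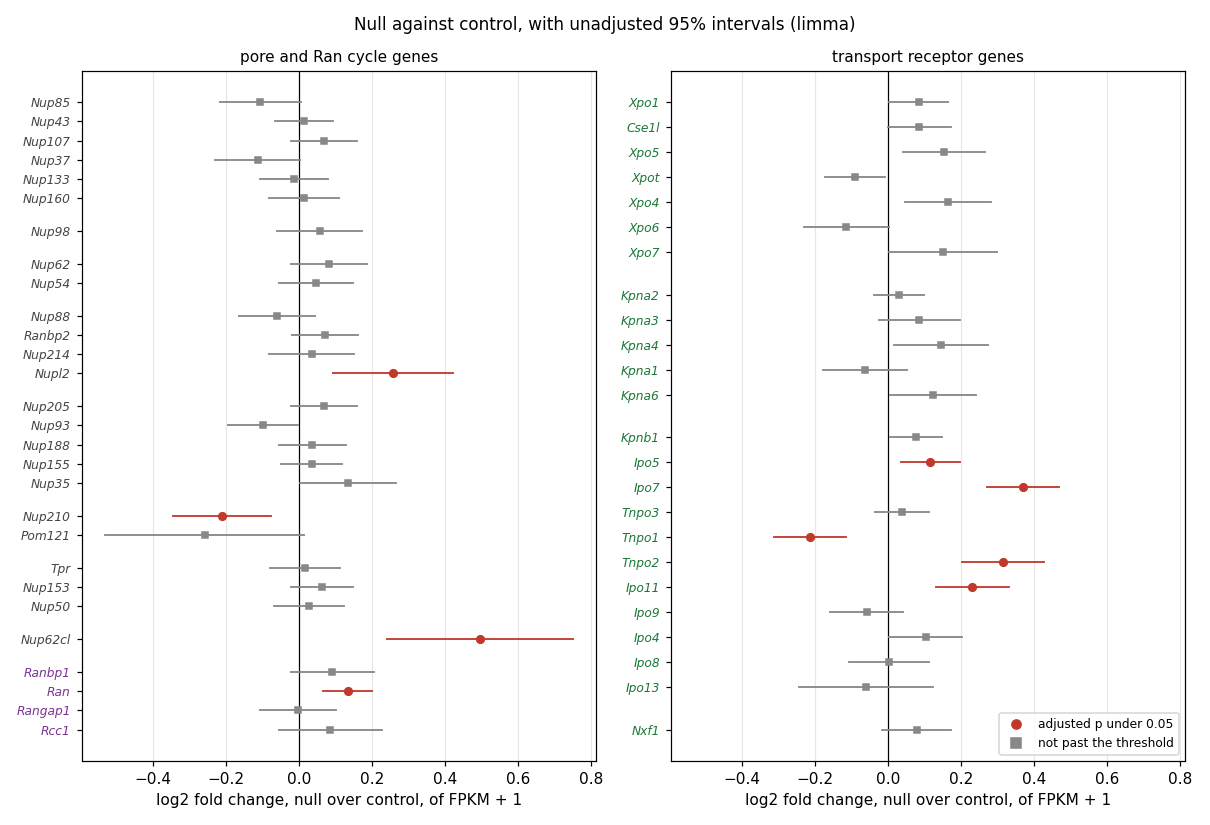
Log2 fold change of FPKM + 1, null over control, with its unadjusted 95% interval, for 52 tested members grouped by role; Nupl1 is left out because its interval runs from -3.93 to 1.32. Round red points mark the 9 members past the threshold and grey squares the others, most of which lie within 0.2 of 0.

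The Y complex, which forms the outer ring and is known to hold its subunits in equal copies, showed no called member. Its 6 members Nup85, Nup43, Nup107, Nup37, Nup133 and Nup160 had log2 fold changes of -0.11 to 0.07 and a median of 0.00 (-5.77e-05), and limma gave 0 of them an unadjusted p under 0.05. The levels were unequal: Nup85 was highest at 102 FPKM over all libraries and Nup160 lowest at 29.0 FPKM. In that order, the 6 values of a gene lay above those of the next, except that Nup107 and Nup37 overlapped. Nup85 was at 112, 104 and 102 FPKM in control and 99.1, 94.8 and 102 FPKM in null libraries. The null values all lay just under the control values, and the log2 fold change of -0.11 (SE 0.05, adjusted p = 0.144) did not pass; after quantile normalization it did (adjusted p = 0.0361).

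The inner ring, the other part of the scaffold, also held no called member. Nup205, Nup93, Nup188, Nup155 and Nup35 had log2 fold changes of -0.10 to 0.13, and limma called 0 of 5. It gave 2 of the 5 an unadjusted p under 0.05, against 4502 of the 11480 loci tested. Those 2 were Nup93, at 73.5 ± 2.0 FPKM in control and 68.6 ± 2.29 FPKM in null libraries, and Nup35, at 29.9 ± 0.996 and 33.0 ± 2.10 FPKM. Their differences pointed in opposite directions (adjusted p = 0.119 for each); after quantile normalization Nup93 was called lower (adjusted p = 0.0482). Nup205, the highest of the ring, was at 74.8, 71.0 and 73.8 FPKM in control and 76.7, 74.8 and 79.1 FPKM in null libraries. Its groups did not overlap, and its fold change of 0.07 (SE 0.04, adjusted p = 0.232) was within the range of the other inner ring genes.

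The central channel is lined by Nup62, Nup54 and the protein of Nupl1, also called Nup58. Nup54 was at 58.8 ± 1.30 FPKM in control and 60.8 ± 2.50 FPKM in null libraries, and Nup62 at 83.0 ± 4.14 and 87.9 ± 1.41 FPKM, neither past the threshold (limma adjusted p = 0.461 and 0.213). The files join Nup62 with its neighbour Il4i1 in 1 locus, so that value is of the joined locus. The Nupl1 locus stood apart, at 1448, 855 and 162 FPKM in control and 44.4, 528 and 560 FPKM in null libraries. Its values spread over more than the whole range of the other pore genes within each group, and the test (log2 fold change -1.30, SE 1.12, adjusted p = 0.430) leaves its direction undetermined.

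The Nupl1 locus is joined in the files with the microRNA gene Mir719, and the annotation places the microRNA inside a coding exon. The hairpin lies on the minus strand of chromosome 14 (mm10, 60228806 to 60228915). Of its 110 bases, 105 fall in exon 12 of Nupl1 (60228709 to 60228910, 202 bases, coding), on the same strand. The RefSeq sequences (GRCm38.p6) are shown because the locus value covers both genes; capitals mark the exon part in the hairpin and the seed, bases 2 to 8, in the mature form.
Mir719 hairpin: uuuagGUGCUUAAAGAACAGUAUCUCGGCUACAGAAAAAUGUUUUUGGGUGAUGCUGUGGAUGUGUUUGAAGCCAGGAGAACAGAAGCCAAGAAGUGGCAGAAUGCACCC
mmu-miR-719: aUCUCGGCuacagaaaaauguu
Nearly the whole hairpin sequence is therefore also Nupl1 coding sequence. Above a mean level of 10 FPKM, the 31 loci joined with a microRNA gene had a median coefficient of variation within groups of 7.84%, and 12 of them exceeded 20%; the 6192 other loci had a median of 4.92%, and 85 exceeded 20%. The Nupl1 locus, which is itself counted among the 31 and among the 12, reached 77.4%. The other 49 members at this level lay between 0.633% and 12.1%. The part of the microRNA in these values was not tested.

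**Figure D3:**
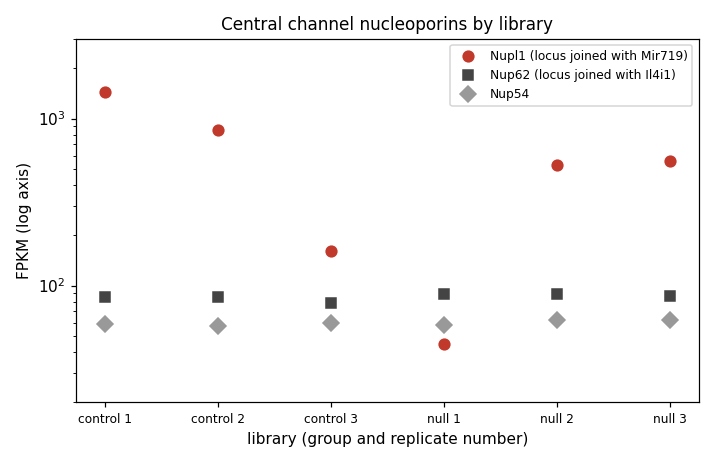
FPKM on a log axis of the 3 central channel loci in each of the 6 libraries. Nup62 and Nup54 stay between 57.4 and 88.8 FPKM in every library, while the locus that joins Nupl1 with Mir719 falls to 44.4 FPKM in null replicate 1 and reaches 1448 FPKM in control replicate 1.

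On the cytoplasmic face, 1 of 4 genes passed the test, a share of 25% next to the background of 25.2%. Nupl2, whose product binds the mRNA export factor Gle1, was at 6.25, 6.46 and 5.78 FPKM in control and 7.32, 8.06 and 7.32 FPKM in null libraries. All null values lay above all control values, a rise of 22.8% (log2 fold change 0.26, SE 0.07, adjusted p = 0.0340). This call is fragile: it was lost in 7 of 15 alternatives, among them 5 of the 6 in which 1 library was left out (all but null replicate 1), at adjusted p-values of 0.0628 to 0.102, and with about 138 fragments in control replicate 1 the gene was among the shallowest members tested. Nup88 was at 101, 106 and 103 FPKM in control and 94.8, 98.0 and 104 FPKM in null libraries, with overlapping groups (adjusted p = 0.366). Ranbp2 (also Nup358), the large filament protein that binds Ran, was at 74.1 ± 1.71 and 77.9 ± 2.33 FPKM, and its partner in export complexes Nup214 at 14.2 ± 0.212 and 14.6 ± 0.553 FPKM. The annotation names 12 pseudogenes of Ranbp2 and 1 of Kpna2, with which these genes may share reads.

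Nup98, which sits on both faces of the pore, was at 53.7, 56.2 and 56.5 FPKM in control and 61.0, 54.5 and 57.8 FPKM in null libraries, overlapping (adjusted p = 0.434). In the nuclear basket, Tpr, Nup153 and Nup50 had log2 fold changes of 0.02, 0.06 and 0.03. Limma called 0 of these 3, and 0 had an unadjusted p under 0.05. Tpr, the coiled-coil protein that forms the basket, was the highest at 89.1, 91.4 and 94.1 FPKM in control and 89.1, 93.6 and 95.5 FPKM in null libraries. The control and null values of Tpr covered almost the same range (adjusted p = 0.775).

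The membrane-anchored nucleoporins were the pore class with negative values in each of its members under the rule. Nup210 (gp210; chromosome 6, 91013067 to 91118322), known for its rise during muscle and neural differentiation, was at 16.4, 17.0 and 15.9 FPKM in control and 13.4, 14.9 and 14.05 FPKM in null libraries. The groups did not overlap, and the level fell by 14.3% (log2 fold change -0.21, SE 0.06, adjusted p = 0.0336). The call was lost in 6 of 15 alternatives, among them without any of the control replicates and without null replicate 1 or 3, where the adjusted p was 0.0613 to 0.115. Pom121 was lower in level, at 5.39, 5.72 and 6.19 FPKM in control and 5.58, 4.66 and 3.85 FPKM in null libraries. Its groups overlapped and it did not pass (log2 fold change -0.26, SE 0.12, adjusted p = 0.147), though it did without null replicate 1 (adjusted p = 0.0411).

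A pair of pore gene paralogs lies outside the pore of most cells. Nup62cl, an X-linked gene named for its likeness to the C-terminal part of Nup62, had the largest fold change among the members past the threshold. It was at 26.3, 22.7 and 22.3 FPKM in control and 38.7, 34.6 and 28.9 FPKM in null libraries. Every null library lay above every control library, but the null values themselves spread over almost 10 FPKM (log2 fold change 0.50, SE 0.11, adjusted p = 0.0162). Without control replicate 2 or 3 the adjusted p was 0.0573 and 0.0553. Nup210l, a paralog of Nup210 known from the testis, was at 0.254 ± 0.0681 FPKM in control and 0.361 ± 0.0161 FPKM in null libraries, under the minimum for the test and close to 12 fragments in control replicate 1.

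**Figure D4:**
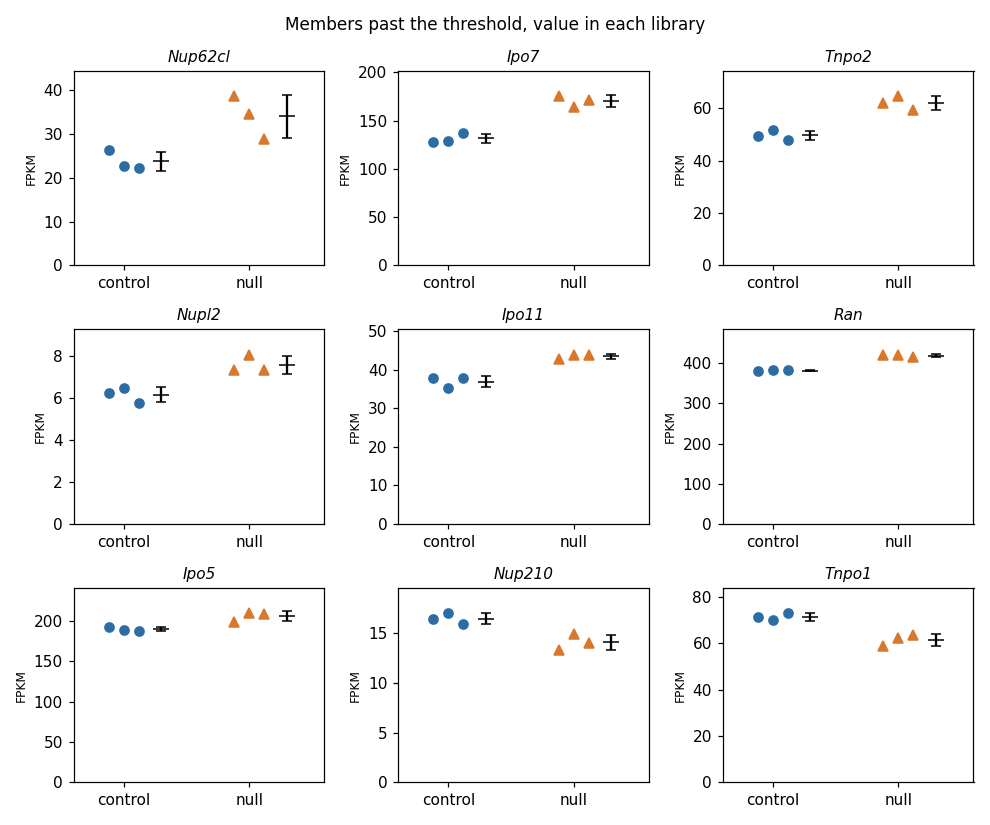
FPKM in each library for the 9 members past the threshold, control as circles and null as triangles, with the mean and SD of each group beside them; all axes start at 0. Groups do not overlap in any panel, but the panels were chosen by the test on these values, and 44.1% of all loci tested do not overlap either. The rises run from 8.45% for Ipo5 to 43.3% for Nup62cl.

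All 5 called receptors were import receptors of the importin beta family. Of its 11 members, 4 were higher (Ipo7, Tnpo2, Ipo11 and Ipo5) and 1 was lower (Tnpo1), or 45.5% against 25.2% of all loci tested, with a median log2 fold change of 0.08. Ipo7, which carries ribosomal proteins and, with Kpnb1, linker histones, was at 128, 129 and 137 FPKM in control and 175, 164 and 172 FPKM in null libraries (chromosome 7, 110018315 to 110056609). The groups were well apart, a rise of 29.4% (log2 fold change 0.37, SE 0.04, adjusted p = 0.00157). Its close relative Ipo8 was at 21.1 ± 0.441 FPKM in control and 21.1 ± 0.750 FPKM in null libraries, with a 95% interval of the log2 fold change of -0.10 to 0.11. The ratio of Ipo7 to Ipo8 was 6.17, 6.20 and 6.36 in control and 8.48, 7.90 and 7.80 in null libraries. Its exact two-sided permutation p was 0.1, the smallest that 20 assignments allow. Ipo8 was added after its values were seen and hardly changed, so this ratio restates the call of Ipo7. The exact two-sided permutation p was also 0.1 for the ratios of Kpnb1 to Kpna2 and of Nup85 to Nup160. For the ratios of Xpo1 to Kpnb1 and of Ran to Ranbp1, the exact two-sided permutation p was 0.6.

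Tnpo1 and Tnpo2 encode closely related transportins that carry RNA-binding proteins into the nucleus, and they moved in opposite directions. Tnpo2 (chromosome 8, 85036873 to 85057585) was at 49.4, 51.5 and 47.8 FPKM in control and 62.1, 64.6 and 59.2 FPKM in null libraries. That was a rise of 24.9% with no overlap (log2 fold change 0.31, SE 0.05, adjusted p = 0.00405). Tnpo1 (chromosome 13, 98839019 to 98926384) was at 71.2, 69.8 and 73.0 FPKM in control and 58.7, 62.2 and 63.4 FPKM in null libraries, and fell by 13.9%, also with no overlap (log2 fold change -0.21, SE 0.04, adjusted p = 0.0114). The ratio of Tnpo2 to Tnpo1 was 0.695, 0.738 and 0.656 in control and 1.06, 1.04 and 0.933 in null libraries. Tnpo1 was thus the higher of the pair in every control library, and both were near parity in null libraries. The exact two-sided permutation p was 0.1, again the smallest possible. This pair was chosen after its values were seen, and its ratio restates the calls of Tnpo1 and Tnpo2. Ipo7, Tnpo2, Ipo11 and Tnpo1 kept their calls in all alternatives tried.

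Ipo11, a carrier of ubiquitin-conjugating enzymes (chromosome 13, 106794439 to 106936958), was at 37.8, 35.3 and 37.7 FPKM in control and 42.8, 43.9 and 43.8 FPKM in null libraries. The gap between groups was larger than the range within either one (log2 fold change 0.23, SE 0.04, adjusted p = 0.00872). Ipo5, another carrier of ribosomal proteins and histones, was at 192, 189 and 188 FPKM in control and 199, 210 and 209 FPKM in null libraries. This rise of 8.45% passed narrowly (adjusted p = 0.0462) and was lost in 9 of 15 alternatives: after quantile normalization the log2 fold change was 0.04 (adjusted p = 0.410), and in the 5 of 6 fits without 1 library that lost it (all but the one without null replicate 1) the adjusted p was 0.0958 to 0.129.

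Kpnb1, importin beta itself and the highest of its family, was at 219, 220 and 223 FPKM in control and 229, 236 and 233 FPKM in null libraries. The groups did not overlap, yet the difference was small (log2 fold change 0.08, SE 0.03, adjusted p = 0.108). Tnpo3, which imports splicing factors, was at 79.4 ± 0.713 and 81.6 ± 0.580 FPKM, and Ipo4, Ipo9 and Ipo13 had log2 fold changes of 0.10, -0.06 and -0.06, none past the threshold. In the order of levels, the values of Kpnb1, Ipo5, Ipo7 and Tnpo3 did not overlap with those of the next gene, whereas Tnpo1 and Tnpo2, and Ipo11 and Ipo9, overlapped.

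To show where these genes start, the 300 bases around the annotated start (250 before and 50 after it, RefSeq, GRCm38.p6) are printed for Ipo7, for the opposed pair Tnpo2 and Tnpo1 (the more upstream window of each) and for Ran. Capitals mark matches, on either strand, to the E-box (CACGTG), the GC box (GGGCGG), the CCAAT box (CCAAT), the TATA box (TATAAA) and the NRF1 motif, the last of which stands only in the window of Ran among these 4.
Ipo7, chr7:110018065-110018364, plus strand: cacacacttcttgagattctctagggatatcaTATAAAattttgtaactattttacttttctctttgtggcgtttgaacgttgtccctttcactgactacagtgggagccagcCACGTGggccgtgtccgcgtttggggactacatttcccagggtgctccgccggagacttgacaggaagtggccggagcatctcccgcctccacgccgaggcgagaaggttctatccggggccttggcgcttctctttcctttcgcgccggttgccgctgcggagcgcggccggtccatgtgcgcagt
Tnpo2, chr8:85036643-85036942, plus strand: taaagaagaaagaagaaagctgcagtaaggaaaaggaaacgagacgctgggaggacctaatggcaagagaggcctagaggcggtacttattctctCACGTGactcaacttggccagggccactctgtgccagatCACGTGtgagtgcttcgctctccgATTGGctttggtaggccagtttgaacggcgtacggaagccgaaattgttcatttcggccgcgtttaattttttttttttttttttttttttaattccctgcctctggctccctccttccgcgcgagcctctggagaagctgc
Tnpo1, chr13:98926335-98926634, minus strand: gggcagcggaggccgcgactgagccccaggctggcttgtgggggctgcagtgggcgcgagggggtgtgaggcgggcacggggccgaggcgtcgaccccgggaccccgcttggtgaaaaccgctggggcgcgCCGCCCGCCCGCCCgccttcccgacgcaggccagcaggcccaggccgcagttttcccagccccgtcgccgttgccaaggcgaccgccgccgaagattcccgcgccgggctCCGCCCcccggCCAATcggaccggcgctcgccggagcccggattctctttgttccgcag
Ran, chr5:129019906-129020205, plus strand: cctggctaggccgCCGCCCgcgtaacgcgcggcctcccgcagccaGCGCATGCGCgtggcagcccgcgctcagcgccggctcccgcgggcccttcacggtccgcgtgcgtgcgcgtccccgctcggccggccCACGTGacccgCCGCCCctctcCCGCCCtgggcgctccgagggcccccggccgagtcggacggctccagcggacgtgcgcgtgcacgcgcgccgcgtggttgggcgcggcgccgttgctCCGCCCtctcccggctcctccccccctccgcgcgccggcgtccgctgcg
Among the printed windows, the E-box letters stand in those of Ipo7, of Tnpo2 at 2 places and of Ran, and not in that of Tnpo1. The other window of Tnpo2 holds no E-box. The E-box letters are absent from the windows of the other 4 higher members (Ipo5, Ipo11, Nupl2 and Nup62cl). They are present in those of 6 members that were not called (Ipo4, Nup188, Nup54, Nup93, Ranbp2 and Xpot). Promoter windows were found for 44 of the 55 members, 52 windows in all, and 9 of these (17.3%) hold CACGTG, against 7.15% of 32851 windows of all genes. The window counted for Nup62 lies at the start of its joined neighbour Il4i1, and it is included in the shares given here. The GC box stands in 65.4% of the members' windows and 35.7% of all windows, and CCAAT in 48.1% and 37.4%. The ETS motif CCGGAAG was in 20.8% of pore windows, 8.33% of receptor windows and 8.86% of all; the YY1 motif AAGATGGC was in 4 of 24 pore windows, 0 of 24 receptor windows and 2.75% of all. The members' windows had a median GC content of 64.3%, against 52.7% for all. These are matches of letters only. The E-box was set beside the calls after these were known, and no test compared motifs with expression.

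The importin alpha genes, the adaptors that join classical cargo to importin beta, showed no called member. Kpna2 was by far the highest, at 382, 376 and 382 FPKM in control and 390, 388 and 386 FPKM in null libraries. The null values lay just above the control values (log2 fold change 0.03, SE 0.03, adjusted p = 0.464). It made up 73.8% ± 0.410 of the summed importin alpha FPKM in control and 73.2% ± 0.562 in null libraries (SD, n = 3 each), a difference about as large as the spread within groups. Kpna3, Kpna4, Kpna1 and Kpna6 followed with shares of 8.22%, 6.52%, 6.64% and 4.85% in control and 8.48%, 7.02%, 6.16% and 5.14% in null libraries. Limma gave 2 of the 5 tested members an unadjusted p under 0.05, against 4502 of the 11480 loci tested. These were Kpna4 and Kpna6, both with higher means in null libraries (33.6 to 37.3 and 25.0 to 27.3 FPKM, adjusted p = 0.0943 and 0.111). Kpna7, an oocyte and early embryo importin alpha, was at 0 in 4 libraries and at 0.108 and 0.119 FPKM in control replicate 2 and null replicate 1.

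Exportins showed a small separation that did not pass. The groups did not overlap for any of the 7 (100% against 44.1% of all loci). Limma gave 6 of the 7 an unadjusted p under 0.05 (4502 of 11480 over all loci tested) but called 0. This depended on the scaling: after median centring limma called 2, Xpo4 and Xpo5. After quantile normalization it called 0, and the median log2 fold change of the exportins was 0.03, against 0.09 as deposited. Xpo1, the general exporter of proteins with a leucine-rich export signal, was at 167, 167 and 176 FPKM in control and 179, 181 and 180 FPKM in null libraries (log2 fold change 0.08, SE 0.03, adjusted p = 0.115). Xpo5, the carrier of microRNA precursors, was at 53.7 ± 2.25 FPKM in control and 59.8 ± 2.51 FPKM in null libraries (adjusted p = 0.0531). Xpo4, known both to export eIF5A and to import Sox2, was at 33.9 ± 1.204 and 38.1 ± 1.83 FPKM (adjusted p = 0.0509). These values sat just outside the threshold. Cse1l, which returns importin alpha to the cytoplasm, was at 105 ± 2.41 and 112 ± 2.88 FPKM, and Xpo7 at 12.7 ± 0.445 and 14.3 ± 0.970 FPKM. The tRNA exporter Xpot and the actin exporter Xpo6 had log2 fold changes of the opposite sign, -0.09 and -0.11, which also did not pass (adjusted p = 0.103 and 0.133). Nxf1, the main exporter of mRNA, was at 86.1, 82.7 and 85.7 FPKM in control and 93.2, 86.6 and 89.3 FPKM in null libraries, apart by less than 1 FPKM (adjusted p = 0.190).

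In the Ran cycle, which gives transport its direction, 1 of 4 genes passed the test, again 25% next to 25.2% of all loci. Ran (chromosome 5, 129020156 to 129024322), the small GTPase itself, was at 380, 383 and 383 FPKM in control and 421, 420 and 416 FPKM in null libraries. The spread within each group was a small part of the difference, a rise of 9.72% (log2 fold change 0.13, SE 0.03, adjusted p = 0.0154). The call was lost in 4 of 15 alternatives: after quantile normalization the log2 fold change was 0.0051 (adjusted p = 0.942), without the variance trend the adjusted p was 0.0627, and without control replicate 1 or 2 it was 0.0596 and 0.0551. Ranbp1, a cofactor of GTP hydrolysis on Ran and the highest of the members apart from the Nupl1 locus, was at 482, 460 and 485 FPKM in control and 483, 499 and 539 FPKM in null libraries, with overlap (adjusted p = 0.205). Rangap1, which triggers that hydrolysis, was at 72.6 ± 2.69 and 72.5 ± 2.53 FPKM, and Rcc1, the chromatin-bound exchange factor, at 54.5 ± 4.13 and 57.8 ± 1.92 FPKM.

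A total of 41 further genes of the pathway were followed from lists outside the rule, and 9 were higher and 2 lower, 26.8% against the background of 25.2%. Of 7 other pore components, Aaas (aladin) was higher, at 51.2 ± 1.09 FPKM in control and 58.0 ± 1.99 FPKM in null libraries (adjusted p = 0.0192), while Sec13, Seh1l, Ahctf1, Rae1, Gle1 and Tmem48 did not pass. Tmem48, the Ndc1 gene, was at 35.6 ± 0.543 and 33.8 ± 1.76 FPKM. Of 12 other transport factors 3 were higher and 1 lower: Phax, the adaptor for export of spliceosomal RNA, rose from 42.7 ± 0.583 to 49.9 ± 1.92 FPKM, and Ranbp17, a relative of Xpo7, fell from 24.2 ± 0.538 to 20.5 ± 0.315 FPKM (adjusted p = 0.00943 and 0.00810). The mRNA export genes of the TREX and TREX-2 complexes had 2 higher and 1 lower of 15. Eny2, a TREX-2 subunit, rose from 13.9 ± 0.610 to 17.2 ± 0.594 FPKM (adjusted p = 0.00918), and the THO subunits Thoc3 and Thoc5 moved in opposite directions, with log2 fold changes of 0.29 (SE 0.03) and -0.28 (SE 0.04; adjusted p = 0.00138 and 0.00368). Of 7 SUMO pathway genes, whose enzymes work at the pore, 3 rose and 0 fell, among them Senp2 from 25.8 ± 0.434 to 31.8 ± 1.80 FPKM and Sumo3 from 56.5 ± 1.45 to 68.5 ± 1.23 FPKM (adjusted p = 0.00709 and 0.00275).

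Other measures moved between the same groups. Of 20 cell cycle genes 13 were higher and 1 lower, or 70% against 25.2% of all loci tested. The median of their log2 fold changes was 0.19. Their summed level was 2695 to 2701 FPKM in control and 2989 to 3021 FPKM in null libraries. After median centring 14 were higher and 1 lower, and after quantile normalization 9 were higher and 3 lower. Rrm2, a ribonucleotide reductase subunit, rose from 107 ± 2.98 to 143 ± 2.52 FPKM, and the cyclin gene Ccne2 from 3.86 ± 0.264 to 5.66 ± 0.712 FPKM (adjusted p = 0.000607 and 0.0156). Loci of chromosome 11 had a median log2 fold change of -0.12, and 33.7% of the 941 tested there passed, against 25.2% of all loci tested. The 5 members on that chromosome, Xpo1, Kpnb1, Kpna2, Nup88 and Nup85, had log2 fold changes of 0.08, 0.08, 0.03, -0.06 and -0.11, and limma called 0 of them. It gave an unadjusted p under 0.05 to 2 of these 5 and to 466 of the 941 loci tested on the chromosome. In these bulk libraries, a different share of cells in a state and a different level per cell cannot be told apart. The part of the cell cycle genes or of the chromosome in the members' values was not tested. The 7 higher and 2 lower calls were also made when loci of chromosomes 11 and Y were left out. No called member lies on either chromosome, so that fit could remove none of them and does not test the chromosome's part.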

How the data were processed

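Total RNA was depleted of ribosomal RNA before library preparation, per the labels' protocols. Cuffdiff, TopHat, FastQC and Trim Galore are listed, with the build mm10, per the submitters' processing notes; the sources used here do not give their roles or versions, nor whether counting used strand. The authors deposited 1 value per locus and library, taken here as FPKM from the values, since no header states the unit; overlapping genes can share fragments.

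The members and lists were chosen with earlier results of these data known. The test was limma 3.58.1 in R 4.3.3 (eBayes with a trend) on log2(FPKM + 1), which understates changes of low genes, over loci averaging 1 FPKM or more, scaled as deposited, with Benjamini-Hochberg adjustment at 0.05. It was tested on simulated data. Percentages of rise or fall are ratios of mean FPKM. Every member is named; those past the threshold (up to 20) and the highest of each role list have the value of each library, and the members near the threshold or in ratios were added after their values were seen. Of the other lists, the 2 largest called changes are named; Thoc5 was added after its values were seen. RefSeq accessions or symbols gave each gene's place on GRCm38.p6 (the assembly of mm10); exons are from GENCODE M21. No raw counts are in the files used; 82.5% of 6174 low values were whole multiples of the smallest within 1%, which gave relative depth, and fragment numbers are rough and carry counting error only. Alternatives changed the pseudocount (0.1, 0.5), the minimum (5 FPKM, none), the scaling, the variance trend, a replicate block, chromosomes 11 and Y, and each library.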

Additional observations from a re-analysis of the deposited data

How the results depend on the processing

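The count of loci called was 1719 to 2914 when 1 library was left out, against 2894 with all. The lowest counts came without control replicate 1 (1776) and without control replicate 2 (1719). For the members the range was 4 to 11 against 9. For pore members it was 0 to 3 against 3, with 0 without control replicate 2 or 3 and 1 without control replicate 1 or null replicate 3. For receptors it was 4 to 7 against 5. The difference of medians, pore minus receptors, was -0.061 to -0.033 against -0.05, and the difference in the Kpna2 share, null minus control, was -0.816 to -0.261 percentage points against -0.580. Quantile normalization called 5 pore members and gave -0.030 for the difference of medians and -1.60 percentage points for the Kpna2 share; the cause was not tested. The replicate block left 2264 loci, 6 members and 1 pore member. The numbers did not pair the libraries: same-numbered libraries correlated at -0.0024, 0.108 and 0.0527 in their deviations from the group means, and not every library correlated best with its own number. In counts added after seeing the data, members were left out of the finished fit without fitting again. This left 9 members called without the joined loci Nupl1 and Nup62, which were not called themselves. It left 2 pore members called without the paralogs Nup210l, which was not tested, and Nup62cl, which was called. Both counts therefore follow from the main fit. Among the 20 members with full values, 0 called fold changes reversed, 28 fits lost a call and 1 gained it (Nup85 after quantile normalization, adjusted p = 0.0361). Of the other members, Nup93 gained a call after quantile normalization, Pom121 without null replicate 1, Xpo5 in 2 alternatives and Xpo4 in 3. Depth limits Kpna7 and Nup210l, which were not tested.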
